A study of Homo sapiens with 4 samples.

Results

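The matrix metalloproteinases (MMPs) and the tissue inhibitors of metalloproteinases (TIMPs) are described here across U87 MG cells given a control siRNA or an siRNA against PELP1. The 9 genes, of 23228 in the count tables, were taken by symbol: the secreted proteases MMP1, MMP2 and MMP3, the membrane-bound proteases MMP14, MMP15 and MMP16, and the inhibitors TIMP1, TIMP2 and TIMP3. They were chosen by their role as proteases or inhibitors and by their counts and fold changes between the 2 siRNAs, which were already known, so their differences between the groups are given as a description, with standard errors and without p-values. All 9 passed the filter on low counts.

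MMPs are zinc-dependent proteases that are made as inactive proenzymes and cut collagens, laminins, fibronectin, growth factor precursors and other proteases outside the cell. TIMPs bind the active site of these enzymes and block them, and TIMP2 also bridges MMP14 and proMMP2 at the cell surface so that a neighbouring MMP14 can activate proMMP2. In glioblastoma, these proteases are known for the breakdown of brain matrix around invading cells.

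U87 MG is an established human glioblastoma line, and PELP1 encodes a scaffold protein that works with nuclear receptors, chromatin regulators and ribosome assembly factors. The control group and the PELP1 siRNA group each held 2 libraries of total RNA, collected 72 h after transfection with Oligofectamine of cells grown in DMEM with serum. The 4 libraries come from a single line in culture, without brain matrix, vessels or immune cells around it, and no source used here gives the sequences of the siRNAs. The labels call the libraries duplicates without naming separate cultures, so a p-value reflects the spread between these 4 samples alone, and that spread may be technical.

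Each library held between 18670162 and 22858988 counts assigned to genes. PELP1 itself was at 73.9 and 78.0 CPM (counts scaled to library size, with the TMM correction for library composition) in the control libraries and at 15.2 and 17.7 CPM in the PELP1 siRNA libraries, a log2 fold change of -2.21 (SE 0.097, n = 2 per group; edgeR quasi-likelihood test, Benjamini-Hochberg adjusted p = 8.34e-14). Of 13234 genes tested, 1980 were called lower with PELP1 siRNA at an adjusted p under 0.05, which is 15% of them, and 1712 were called higher, or 12.9%. Left without control library 1 or 2, the same test called 1466 or 1689 genes in all, and scaling by total counts turned the split into 1597 lower and 2272 higher. Both PELP1 siRNA libraries lay below both control libraries for 32.3% of the genes tested and above them for 32%. Against the label of a glioma line, VIM and CD44 were abundant, while GFAP was at 1.37 CPM in the control group and SOX2 and S100B were near 0. The 9 markers of the line summed to 9527 to 9667 CPM in control and 7642 to 8047 CPM in PELP1 siRNA libraries, mostly from VIM and CD44. Of them, VIM (-0.28), CD44 (-0.32) and NES (-0.51) were called lower. CDKN2A and CDKN2B, listed because U87 MG is known for their loss, had no count in any library. Summed marker levels were 440.8 to 448 CPM in control and 403 to 442 CPM in PELP1 siRNA libraries for immune cells, nearly all of it CD68, with AIF1 and CD3E at 0. The sums were 16.8 to 17.1 against 13.0 to 14.3 CPM for endothelial cells and 64.1 to 66.5 against 50.4 to 52.3 CPM for neuronal genes. For epithelial cells they were 1.75 to 2.32 against 2.42 to 2.49 CPM. In these lists only KDR (-0.50), SNAP25 (-0.63) and EPCAM (1.02) were called, 1 each in the endothelial, neuronal and epithelial lists. The tested immune markers, CD68 (-0.069) and CSF1R (-0.21), were not called. Of the other tested markers, TEK (0.41), VWF (0.33), SYT1 (0.28) and KRT18 (-0.41) had the opposite sign to the called gene. PECAM1 (-0.32) and SYP (-0.29) had the same sign. The part of these marker shifts in the values below was not tested. In bulk RNA, fewer cells expressing a gene and less RNA per cell cannot be told apart.

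Among the 9 genes, 6 were called lower with PELP1 siRNA (MMP1, MMP2, MMP3, MMP14, MMP16 and TIMP1), 1 was called higher (TIMP3), and MMP15 and TIMP2 were not called. The choice of the genes used this contrast, so nothing is read from that count beside the 15% and 12.9% of all genes tested. The PELP1 siRNA libraries lay below both control libraries for 7 of the 9, above them for 1, and overlapped them for MMP15. Over all genes tested these shares were 32.3% below and 32% above, and nothing is read from this count either. The median log2 fold change was -1.39 over the secreted proteases, -0.35 over the membrane-bound proteases and -0.053 over the TIMPs, beside 0.00088 over all genes tested.

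**Figure D1:**
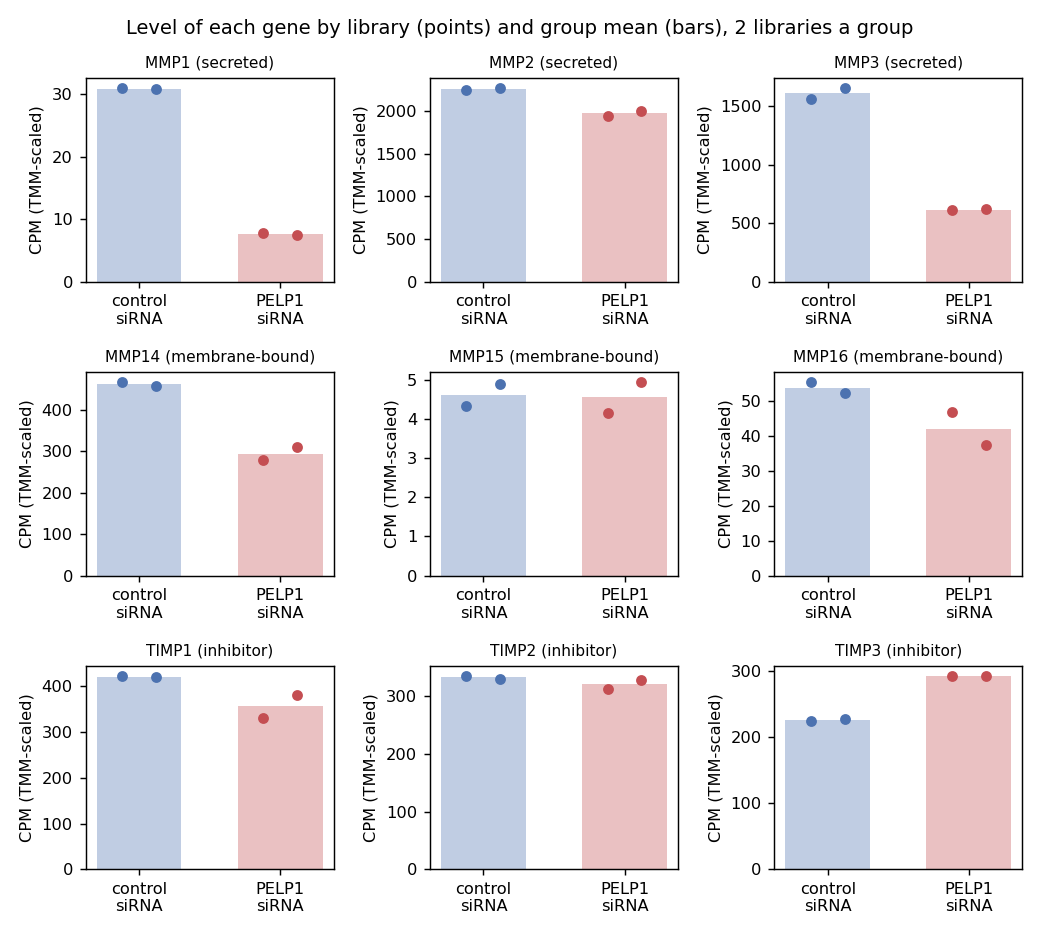
CPM of each of the 9 genes (vertical axes from 0, a separate scale per gene) in the control and PELP1 siRNA groups; points are single libraries and bars are means of 2. MMP1 and MMP3 show the widest gaps, TIMP3 is the single gene whose PELP1 siRNA libraries both lie above the controls, and the MMP15 points overlap.

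The secreted proteases differed widely in how much they changed. MMP1, interstitial collagenase, which cuts fibrillar collagen, was at 31.0 and 30.8 CPM in the control libraries (601 and 691 counts) and at 7.81 and 7.48 CPM in the PELP1 siRNA libraries (154 and 142 counts). The groups lay far apart and the libraries of a group close together: the exact 95% Poisson intervals, which cover counting error only, were 28.6 to 33.6 CPM in control library 1 and 6.63 to 9.15 CPM in PELP1 siRNA library 1. The mean fell by 75.3%, with a log2 fold change of -2.01 (SE 0.11), the 16th lowest of the 13234 genes tested. MMP1 lies on chromosome 11 (GRCh37, 102660132 to 102668891, minus strand) and has 10 exons.

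MMP3, stromelysin-1, which cuts proteoglycans, laminin and fibronectin and can activate proMMP1, was at 1563 and 1654 CPM in the control libraries and at 613 and 618 CPM in the PELP1 siRNA libraries. The 2 PELP1 siRNA libraries differed by less than the control libraries, and the groups lay far apart, with a log2 fold change of -1.39 (SE 0.061) and a mean that fell by 61.7%. This was the 60th lowest fold change, in a gene that ranked 36th in CPM among the genes tested in the control group. MMP3 is the neighbour of MMP1 on chromosome 11 (102706532 to 102714340, minus strand, 10 exons).

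MMP2, gelatinase A, which cuts denatured collagen and basement membrane collagen, was the most abundant of the 9 in CPM and ranked 17th among all genes tested in the control group. Its control libraries held 2240.5 and 2268 CPM and its PELP1 siRNA libraries 1946.5 and 2001 CPM. The groups did not overlap, but the distance between them was small beside those of MMP1 and MMP3: the mean fell by 12.4%, with a log2 fold change of -0.19 (SE 0.058). MMP2 was no longer called with scaling by total counts (log2 fold change -0.14) or without control library 1 or 2 (-0.20 and -0.18). The gene lies on chromosome 16 (55423612 to 55540603, plus strand, 13 exons).

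The 3′ untranslated region (UTR) of MMP1 holds a 7-base word that also stands in the PELP1 mRNA. The word, CTCAGTT, and another, GCCTTGA, came out of an earlier look for words more frequent in the 3′ UTRs of genes that were lower in these same libraries, so the shares below describe that selection and give no independent support. The 2 sites are shown so that the shared letters and their surroundings can be compared. Capitals mark the word, and the letters read in the sense of the mRNA, with T for U. On GRCh37 the capitals lie at chr11:102661006-102661012 in exon 10 of MMP1. Those of PELP1 lie at chr17:4594686-4594692 in the coding part of exon 2, and both genes are on the minus strand.
MMP1 3′ UTR: ttatttatacCTCAGTTtgcatatttt
PELP1 exon 2: taatgcacgtCTCAGTTccatcaaaac
The MMP1 site begins at base 131 of a 493-base 3′ UTR. MMP16 carried GCCTTGA at 3 places in a 9450-base 3′ UTR, the longest of the 9. GCCTTGA also stands in the coding part of PELP1, in exons 6 and 15. Neither word was found in the 3′ UTRs of the other 7 of the 9 genes, which run from 98 bases in TIMP1 to 3664 bases in TIMP3. Thus MMP2, MMP3, MMP14 and TIMP1, all called lower, carried neither. At least 1 of the words stood in 42.6% of 1893 genes called lower, 18.3% of 1646 called higher and 22.7% of 8704 not called. The median 3′ UTR was 1702 bases in the genes called lower, against 1352 and 1299 bases in the others. The part of the word in the MMP1 and MMP16 values was not tested, and a match of letters is a description only.

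The membrane-bound proteases were led by MMP14 (MT1-MMP), a collagenase at the cell surface and the activator of proMMP2. MMP14 was at 468 and 458 CPM in the control libraries and at 279 and 309.9 CPM in the PELP1 siRNA libraries. The 2 PELP1 siRNA libraries differed more than the controls, yet both lay well below them. The mean fell by 36.4%, with a log2 fold change of -0.65 (SE 0.065), and it was -0.72 without PELP1 siRNA library 2 and -0.58 without library 1. MMP14 lies on chromosome 14 (GRCh37, 23305769 to 23318250, plus strand, 10 exons).

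MMP16 (MT3-MMP), which is known from brain tissue, was at 55.3 and 52.1 CPM in the control libraries and at 46.7 and 37.2 CPM in the PELP1 siRNA libraries. Library 2 of the PELP1 siRNA group lay farther below library 1 than library 1 lay below either control. The mean fell by 21.9%, with a log2 fold change of -0.35 (SE 0.097). Without PELP1 siRNA library 1 it was -0.52 and without library 2 it was -0.20, and without control library 1 MMP16 was no longer called, at -0.31. The gene lies on chromosome 8 (89044239 to 89340254, minus strand, 10 exons).

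MMP15 (MT2-MMP) was the scarcest of the 9, at 4.33 and 4.91 CPM in the control libraries (84 and 110 counts) and 4.16 and 4.95 CPM in the PELP1 siRNA libraries (82 and 94 counts). The groups overlapped, and the log2 fold change was -0.026 (SE 0.18). The exact Poisson intervals of the 4 libraries ran from 3.31 to 6.06 CPM in all and overlapped one another. MMP15 lies on chromosome 16 (58059658 to 58080805, plus strand, 10 exons).

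**Figure D2:**
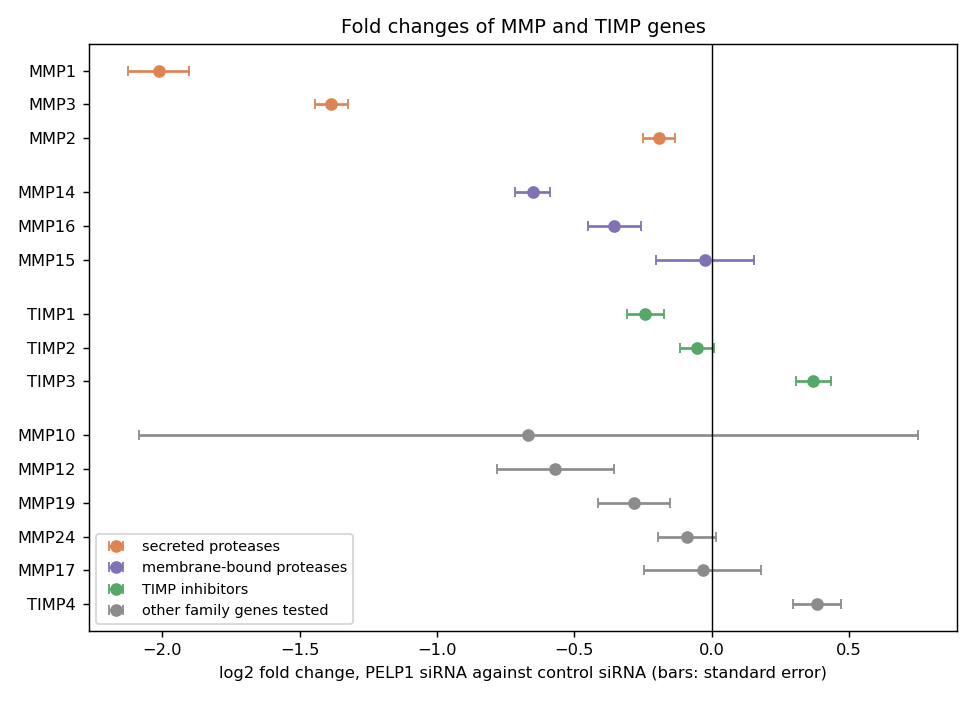
Log2 fold change of PELP1 siRNA against control siRNA (horizontal axis; bars are standard errors from the edgeR fit) for the 9 genes by class and for the 6 other MMP and TIMP genes that were tested. Values run from -2.01 for MMP1 to 0.38 for TIMP4, and the bar of MMP10 spans 0 widely.

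The TIMP genes moved in different directions. TIMP3, the inhibitor that stays bound to the extracellular matrix and also blocks several ADAM proteases, was at 225 and 228 CPM in the control libraries and at 293 CPM in both PELP1 siRNA libraries. Its groups were well apart, and the mean was 29.3% higher with PELP1 siRNA, with a log2 fold change of 0.37 (SE 0.062). TIMP3 lies on chromosome 22 (33197691 to 33259028, plus strand, 5 exons), within SYN3 on the other strand, which had 5 or 6 counts per library and shares no exon bases with it.

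TIMP1, a broad inhibitor of secreted MMPs that binds proMMP9, was at 423 and 420.1 CPM in the control libraries and at 332 and 382 CPM in the PELP1 siRNA libraries. The PELP1 siRNA libraries differed from each other by more than library 2 differed from the controls. The mean fell by 15.4%, with a log2 fold change of -0.24 (SE 0.068) that became -0.14 without PELP1 siRNA library 1 and -0.34 without library 2. TIMP1 was not called without control library 1 or 2, at -0.24 and -0.25. It lies on chromosome X (47441807 to 47446188, plus strand, 6 exons) within SYN1 on the other strand, which had 4 to 7 counts per library, and the exons of the 2 genes share no bases.

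TIMP2, the inhibitor that forms the bridge between MMP14 and proMMP2, was at 335 and 329 CPM in the control libraries and at 313 and 328 CPM in the PELP1 siRNA libraries. The highest PELP1 siRNA value was just under the lowest control value, and the log2 fold change of -0.053 was smaller than its standard error of 0.062. TIMP2 lies on chromosome 17 (76849059 to 76921469, minus strand, 5 exons). It shares 3.61% of its exon bases with CEP295NL on the same strand and 5.91% with a long noncoding RNA on the other, genes that are not analysed here.

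The promoters of MMP14, TIMP1 and TIMP3 are shown because 2 of these genes were lower and 1 was higher with PELP1 siRNA. The lines give the 120 bases before the start of the gene from RefSeq (GRCh38.p14, plus strand), at chr14:22836465-22836584 for MMP14, chrX:47582316-47582435 for TIMP1 and chr22:32801585-32801704 for TIMP3. Capitals mark the GC box, GGGCGG on either strand, which on the minus strand reads CCGCCC.
MMP14 promoter: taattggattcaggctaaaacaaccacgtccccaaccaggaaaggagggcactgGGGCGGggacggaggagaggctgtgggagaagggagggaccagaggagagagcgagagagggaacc
TIMP1 promoter: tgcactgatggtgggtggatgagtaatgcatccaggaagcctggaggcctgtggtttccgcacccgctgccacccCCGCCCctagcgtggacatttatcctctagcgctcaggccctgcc
TIMP3 promoter: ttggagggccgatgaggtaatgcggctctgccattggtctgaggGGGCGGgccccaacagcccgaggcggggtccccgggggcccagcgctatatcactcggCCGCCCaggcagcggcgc
The GC box was found once in the MMP14 and TIMP1 windows and at 2 places in that of TIMP3. It was found at 3 places in that of MMP15, the other gene whose entry is used here. It stood in 34.0% of 35116 RefSeq promoter windows of this length. The AP-1 word TGANTCA (either strand) stood in 3.34% of all windows and the TATA word TATAAA (either strand) in 5.63%, and neither was found in these 4. Only exact matches were counted, so near matches, such as TGAGTAA in the TIMP1 window, were left out. With GC boxes alone found, no motifs overlap in these windows, and a match says nothing about binding. No entry is used here for MMP1, MMP2, MMP3, MMP16 and TIMP2, whether or not RefSeq holds one.

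To compare levels between genes, CPM were divided by the length of the union of exons of each gene in GENCODE release 44 on GRCh37, in kilobases. In the control group the order of the levels per kilobase was MMP3 (867.5 ± 34.6, SD, n = 2), MMP2 (479 ± 4.15), TIMP1 (292 ± 1.68), MMP14 (100.1 ± 1.49), TIMP2 (53.5 ± 0.66), TIMP3 (49.3 ± 0.47), MMP1 (11.3 ± 0.041), MMP16 (4.43 ± 0.19) and MMP15 (1.09 ± 0.096). No 2 neighbours in that order overlapped between libraries. MMP1, whose fold change was the greatest of the 9, was thus a minor transcript beside MMP3 and MMP2 already in control cells.

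With PELP1 siRNA the order became MMP2 (419 ± 8.17), MMP3 (332 ± 1.93), TIMP1 (247 ± 24.7), MMP14 (63.7 ± 4.68), TIMP3 (63.7 ± 0.028), TIMP2 (51.6 ± 1.68), MMP16 (3.47 ± 0.55), MMP1 (2.79 ± 0.087) and MMP15 (1.08 ± 0.13). MMP2 stood above MMP3, TIMP3 stood above TIMP2, and MMP16 stood above MMP1, each the other way round from the control group. The libraries of MMP14 and TIMP3 overlapped. Part of this order rests on the length used: with the longest transcript, TIMP2 lay above MMP14 and TIMP3, MMP3 overlapped TIMP1, and MMP1 (3.88 ± 0.12) overlapped MMP16 (3.63 ± 0.58). The canonical transcript of TIMP1 is shorter still and put TIMP1 above MMP3.

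**Figure D3:**
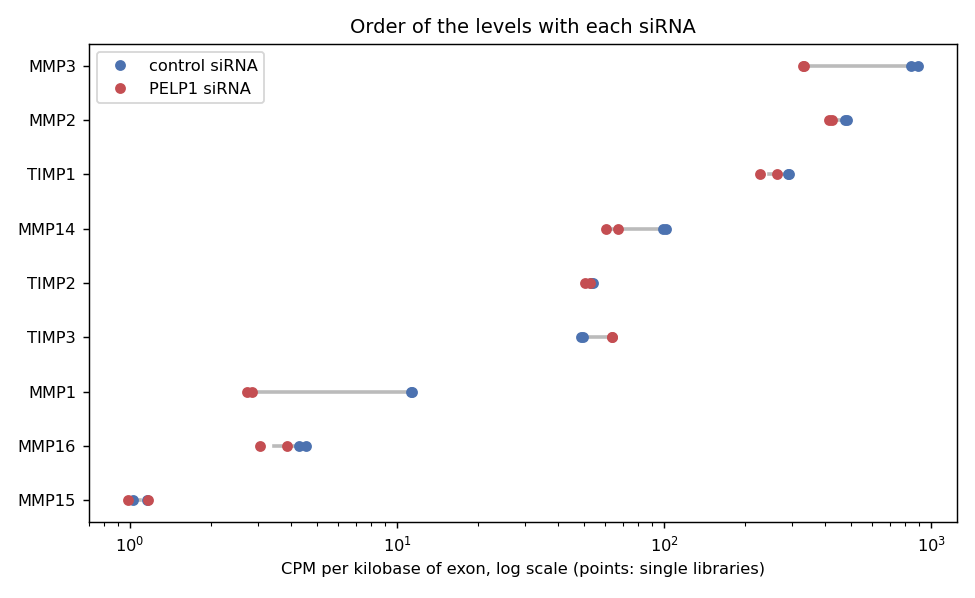
CPM per kilobase of exon (horizontal log axis) for the 9 genes, ordered by the control group; points are single libraries and grey lines join the group means. MMP3 moves from the right of MMP2 to its left, MMP1 from the right of MMP16 to its left, and MMP15 stays near 1.

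Summed over each class, the 3 secreted proteases came to 1330.4 and 1385 CPM per kilobase in the control libraries and to 747 and 761 in the PELP1 siRNA libraries. The 3 membrane-bound proteases summed to 106.8 and 104.5 against 65.2 and 71.3, and the 3 TIMPs to 396 and 393 against 343 and 381. All 3 sums were lower in both PELP1 siRNA libraries, the TIMP sum by the smallest fold. These sums add transcript levels and do not measure enzyme activity or inhibition.

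Within each library, the sum of secreted proteases was 3.36 and 3.52 times that of the TIMPs in the control group and 2.18 and 2.00 times in the PELP1 siRNA group, so the ratio with PELP1 siRNA was 0.607 of the control ratio. With MMP3 left out of the first sum and TIMP1 out of the second, it was 0.768 of the control ratio. For the membrane-bound proteases the ratio to the TIMPs was 0.27 in both control libraries and 0.19 in both PELP1 siRNA libraries, or 0.704 of the control ratio. MMP14 over TIMP2, the pair that handles proMMP2, was 1.88 and 1.87 in the control libraries and 1.20 and 1.27 in the PELP1 siRNA libraries. MMP2 over TIMP2 was 8.82 and 9.09 against 8.21 and 8.06. These ratios of chosen genes are descriptions, and each kept its groups apart. Their size depends on the length used, here the union of exons. The control level of TIMP1 was 292 CPM per kilobase with that length and 548 with the canonical transcript.

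With the union of exons as the length, composition shifted within the secreted and the TIMP class. MMP3 made up 63.9% of the summed secreted level in the control group and 44% with PELP1 siRNA, while MMP2 went from 35.3% to 55.6% and MMP1 from 0.83% to 0.37%. Among the TIMPs, TIMP3 went from 12.5% to 17.6% and TIMP1 from 74.0% to 68.1%. MMP14 held 94.8% of the membrane-bound level in the control group and 93.3% with PELP1 siRNA.

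**Figure D4:**
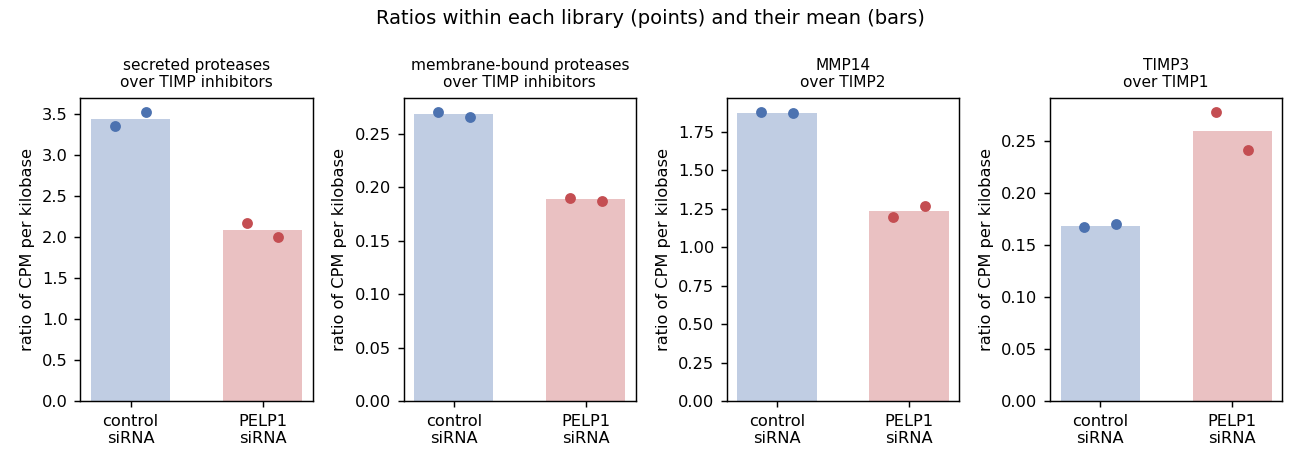
Ratios of CPM per kilobase within each library (vertical axes from 0; points are libraries, bars are means of 2) for secreted and membrane-bound proteases over TIMPs, MMP14 over TIMP2, and TIMP3 over TIMP1. The first 3 ratios are lower in both PELP1 siRNA libraries and the last is higher, at 0.278 and 0.241 against 0.167 and 0.171.

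The files hold 19 other MMP and TIMP genes, of which 6 were tested. The remaining 13 did not pass the filter: 5 had no count in any library and 8 had at most 7 counts in a library, among them MMP9, the gelatinase B of inflammatory cells, and MMP7. TIMP4, an inhibitor known from heart and brain, was at 53.3 and 53.0 CPM in the control libraries and at 75.1 and 63.6 CPM in the PELP1 siRNA libraries. It rose, with a log2 fold change of 0.38 (SE 0.086, edgeR adjusted p = 0.00171), though leaving out control library 1 or 2 gave an adjusted p of 0.0596 or 0.061. MMP12, macrophage elastase, was at 3.61 and 3.39 CPM against 2.54 and 2.16 CPM. It fell by 0.57 on the log2 scale (SE 0.21, edgeR adjusted p = 0.0487), just inside the threshold, and the adjusted p was 0.0694 with total counts, 0.0591 with limma-voom and 0.288 with DESeq2. Without control library 1, control library 2 or PELP1 siRNA library 2 it was 0.265, 0.163 and 0.155.

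MMP10, stromelysin-2, had 5 and 98 counts in the 2 control libraries and 28 and 31 counts in the PELP1 siRNA libraries. The control libraries lay on either side of the other group, and the log2 fold change was -0.67 (SE 1.42), so no direction can be given. Without control library 1 it was -1.52 and without control library 2 it was 2.53. The log2 fold change was -0.28 (SE 0.13, edgeR adjusted p = 0.111) for MMP19, -0.09 (SE 0.10) for MMP24 and -0.032 (SE 0.21) for MMP17, the last with the opposite sign under total-count scaling. Without PELP1 siRNA library 2, MMP19 and MMP24 were called lower, at -0.38 and -0.23.

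MMP10, MMP1, MMP3 and MMP12 follow each other on chromosome 11, all on the minus strand, with gaps of 8773, 37641 and 19127 bases. Their log2 fold changes along this row were -0.67 with the wide error above, -2.01, -1.39 and -0.57. A pseudogene on the other strand, WTAPP1, not analysed here, shares 8.14% of the exon bases of MMP1 and 1.73% of those of MMP3, and no source used here states the strand setting of the counting. Of 18 genes in the files that lie next to or overlap the 9 and are not among them, 3 were called lower and none higher by edgeR, 10 were not called and 5 were not tested. The 3 were MMP12, C16orf57 beside MMP15 (-0.24) and RIPK2 beside MMP16 (-0.22), named after their values were seen. Of all genes tested, 15% were called lower and 12.9% higher, and nothing about position is read from these 3.

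Genes related to the MMPs by family or role were read from 6 lists: other family genes, activators and partners, transcription factors, inducing cytokines, matrix substrates, and related metalloproteases. The lists were drawn up with earlier results of these data known, so their counts are no independent evidence of a direction. Over all 6, 120 of 148 genes were tested, 47 were lower, 17 were higher and 56 were not called, which is 39.2% and 14.2% beside the 15% and 12.9% of all genes. The median log2 fold change was -0.14. Without control library 1 or 2, 9 and 11 were called higher instead of 17.

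Of 26 tested activators, surface partners and other inhibitors, 13 were lower, 4 were higher and 9 were not called (median -0.17). The lower genes included ITGB3, the integrin subunit that pairs with the alpha v chain (-1.65, SE 0.074, edgeR adjusted p = 1.00e-13), and PLAU, the urokinase that turns plasminogen into plasmin, an activator of several proMMPs (-1.23, SE 0.065, adjusted p = 1.58e-12). The higher genes included SERPINE2, an inhibitor of urokinase, plasmin and thrombin (0.62, SE 0.063, adjusted p = 1.03e-07), and PCSK5, a proprotein convertase (0.83, SE 0.16, adjusted p = 0.000471). Of the 24 list genes named, 5 carry CTCAGTT in a 3′ UTR (ITGB3, PLAU, PCSK5, ETS1 and FBN1), beside 17.2% of all tested genes with a 3′ UTR. The other 19, among them IL1B, LIF, LAMB2, ADAMTS1 and ADAMTS5, which were all lower, carry neither word. Without control library 1 or 2, 2 genes of this list were called higher.

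Of 16 tested cytokines and growth factors that induce MMP genes, 11 were lower, 5 were not called and 0 were higher in the edgeR test (median -0.59). None was higher at an unadjusted p under 0.05 either, nor by DESeq2 or limma-voom, while 1 was called higher without PELP1 siRNA library 2. IL1B, interleukin-1 beta, an inducer of MMP1 and MMP3 in many cell types, was at 401 and 422 CPM in the control libraries and at 138 and 144 CPM in the PELP1 siRNA libraries (-1.55, SE 0.065, edgeR adjusted p = 6.46e-14). LIF, a cytokine of the interleukin-6 family, was at 284 and 278 against 121 and 131 CPM (-1.16, SE 0.067, adjusted p = 8.77e-12). Whether these levels bear on the MMP values was not tested.

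Of 25 tested transcription factors that bind MMP promoters, 8 were lower, 5 were higher and 12 were not called (median -0.14). EGR1, an immediate early factor, went from 13.2 and 13.5 to 6.65 and 8.74 CPM (-0.80, SE 0.14, edgeR adjusted p = 0.000127), and ETS1, which acts with AP-1 on collagenase and stromelysin promoters, went from 128 and 124 to 80.4 and 74.1 CPM (-0.71, SE 0.073, adjusted p = 1.27e-07). STAT3 (0.52, SE 0.066, adjusted p = 2.55e-06) and TWIST1 (0.72, SE 0.11, adjusted p = 3.05e-05) were higher. Without control library 1, 3 genes of this list were lower and 2 were higher. Without control library 2, 5 were lower and 2 were higher, and DESeq2 called 3 higher.

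Of 29 tested matrix substrates, 10 were lower, 4 were higher and 15 were not called (median -0.064). FBN1, the microfibril protein fibrillin-1, fell the most of this list (-1.70, SE 0.064, edgeR adjusted p = 8.25e-15), and LAMB2, a laminin chain of basement membranes, was also lower (-0.80, SE 0.076, adjusted p = 3.26e-08). COL5A2, a chain of fibrillar type V collagen, was at 128 and 127 CPM in the control libraries and at 281 and 266 CPM in the PELP1 siRNA libraries (1.10, SE 0.066, adjusted p = 1.23e-11). SPARC, a matrix protein that binds collagen, was also higher (0.54, SE 0.059, adjusted p = 2.48e-07). Substrates of the MMPs were therefore found on both sides.

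Of 18 tested related metalloproteases, 4 were lower, 3 were higher and 11 were not called (median -0.075). The aggrecanases ADAMTS5 (-1.34, SE 0.078, edgeR adjusted p = 1.04e-11) and ADAMTS1 (-1.20, SE 0.067, adjusted p = 4.77e-12) were lower by folds between those of MMP14 and MMP3. ADAM19 was higher (0.71, SE 0.09, adjusted p = 2.62e-06), as was ADAM22 (0.50, SE 0.14, adjusted p = 0.00803), which missed the threshold when control library 1 (adjusted p = 0.164) or PELP1 siRNA library 1 (0.101) was left out. Without control library 1, 1 gene of this list was higher and without PELP1 siRNA library 2 it was 6.

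**Figure D5:**
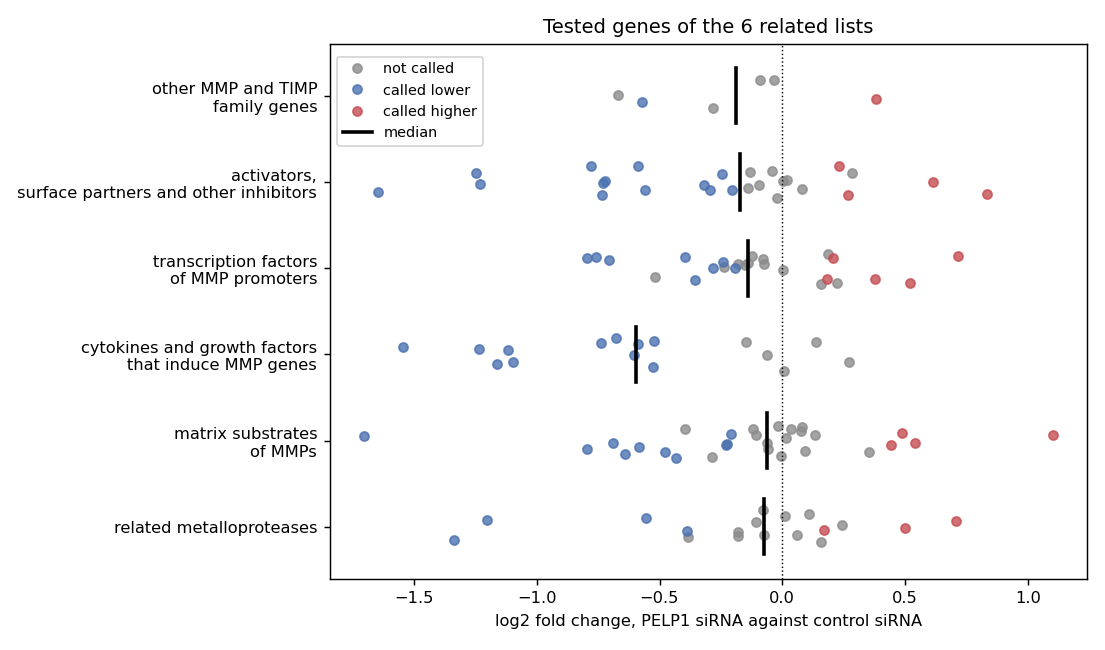
Log2 fold change of PELP1 siRNA against control siRNA (horizontal axis) for the 120 tested genes of the 6 related lists, 1 point per gene, coloured by the edgeR call, with the median of each list as a black line. The cytokine list has its median at -0.59 and no gene called higher, and the other lists have genes called on both sides.

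The genes most like MMP1, MMP14 and TIMP3 were found by the Euclidean distance between log2 CPM values centred on each gene, over the 4 libraries, among 10585 genes of at least 5 CPM. Since 4 libraries in 2 groups carry mainly the difference between the groups, a small distance says mostly that 2 fold changes were alike. The genes nearest to MMP1 were PELP1 (distance 0.292), SERPIND1 (0.298) and FBN1 (0.31), with fold changes of -2.21, -1.72 and -1.70. For MMP14 they were PPP1R15A (0.0127), SPHK1 (0.0195) and C17orf91 (0.02), at -0.65, -0.64 and -0.66. For TIMP3 they were MICA (0.0033), BHLHE40 (0.0182) and ELOVL5 (0.0197), at 0.37, 0.35 and 0.36. MMP1 thus had no neighbour as close as those of the other two.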

How the data were processed

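Total RNA libraries of U87 MG cells were read as 50-base single-end reads per the labels' protocols. The submitters' processing notes name CASAVA 1.8.2, TopHat2 2.0.8b, HTSeq and the build hg19 (GRCh37). The deposited values are raw read counts per gene symbol, left without normalization by the authors. The sources used here give neither the annotation release nor the strand setting. Such counting leaves out reads that map to several places or genes, so close paralogs and overlapping genes can be under-counted. The 5 summary lines of each column (36.0 to 37.6% of its counts) were left out.

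All 4 libraries, 2 per group, entered 1 fit: edgeR 4.0.16 in R 4.3.3, robust quasi-likelihood, TMM scaling, filterByExpr (minimum count 10, minimum total 15), group as the only term, Benjamini-Hochberg adjustment over 13234 genes and calls at an adjusted p under 0.05. The fit was tested on simulated data. DESeq2 1.42.0, limma-voom (limma 3.58.1), other scalings and filters, a replicate block, other gene lengths and leaving out each library were alternatives. Precision is limited by 2 libraries per group (biological coefficient of variation 5.23%) and, for scarce genes, by counting. Gene positions and lengths come from GENCODE 44 on GRCh37, which matched 91.8% of the symbols and all 9 genes. Promoters come from RefSeq.

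The 9 genes, the lists and the 3′ UTR words were chosen with earlier results of these data known. Named are all tested MMP and TIMP genes, for each other list and direction the 2 genes lowest in adjusted p, and the 3 genes nearest to MMP1, MMP14 and TIMP3 among those of at least 5 CPM. Immune, endothelial, neuronal and epithelial markers were read as summed CPM.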

Additional observations from a re-analysis of the deposited data

How the results depend on the processing

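MMP1, MMP3, MMP14 and TIMP3 were called in the same direction in all 11 alternatives run, and none of the 7 fold changes called at first changed sign, while that of MMP15 ran from -0.15 to 0.098. Leaving out 1 library moved the number of genes called between 1466 and 5528, the number of the 9 called lower between 3 and 6, and the number of related genes called higher between 9 and 22. The lone library of a group was then assumed to vary like the other group. Over the same fits the log2 fold change ran from -1.52 to 2.53 for MMP10, from -0.21 to 0.15 for MMP17 and from -0.23 to 0.051 for MMP24. It was 0.37 for MMP10 in limma-voom and 0.016 for MMP17 with total counts. The cause was not tested. With the most abundant gene of each class left out, the PELP1 siRNA ratio to the TIMPs was 0.768 (secreted) and 0.733 (membrane-bound) of the control ratio. With the canonical transcript length, chosen after seeing the data, it was 0.658 and 0.722. Over the genes tested, the deviations of same-numbered libraries from their group means had a correlation of -0.031. With 2 libraries per group, this cannot tell whether same-numbered libraries were made together. With the number as a replicate block, 3581 genes were called, among them 6 of the 9 lower and 1 higher. Among the tested MMP and TIMP genes, counting error is widest, relative to the level, for MMP10, MMP12, MMP15 and MMP17. These genes had 5 to 110 counts in a library. MMP10 differed between its 2 control libraries, at 5 and 98 counts. With 2 libraries per group, the calls of MMP2, MMP16 and TIMP1 depend on which library is left out.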
